A study of Homo sapiens with 6 samples.

Results

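Eph receptors, ephrins, Slits, Robo receptors, netrins and netrin receptors are families of axon guidance genes, and they were examined in K562 cells that carry WT or Delta-TRRAP EP400. The members were chosen by gene symbol alone, which gave 41 of the 60609 genes in the count files: 9 EphA receptors, 5 EphB receptors, 5 ephrin-A ligands, 3 ephrin-B ligands, 4 Robo receptors, 3 Slit ligands, 6 netrin receptors and 6 netrins. K562 is an established human leukaemia line with erythroid and megakaryocytic features. In both groups the endogenous EP400, the scaffold and ATPase subunit of the TIP60 acetyltransferase complex, carried a homozygous C-terminal FKBP12 F36V-2xHA degradation tag, and the cells were given 500 nM dTAGV-1, which degrades tagged protein, for 24 h. The cells were complemented from the AAVS1 safe-harbour locus with WT EP400 (WT, 3 libraries) or with EP400 lacking the SANT and HD domains that hold TRRAP in the complex (Delta-TRRAP, 3 libraries). The study's methods describe 1 clone per complemented line, so clone and genotype cannot be told apart. The study's methods call the 3 libraries of a line biological replicates, so p-values measure the spread between replicates of 1 clone and not between clones.

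Eph receptors are the largest family of receptor tyrosine kinases. They bind ephrins on neighbouring cells, the A ephrins through a lipid anchor and the B ephrins as transmembrane proteins, and signal can pass into both cells. Slits are secreted repellents read by Robo receptors, and netrins are laminin-related cues read by DCC, neogenin and the UNC5 receptors. Outside the nervous system the same families act in vessel growth and cell adhesion, and EPHB4 is expressed on haematopoietic progenitors.

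The most abundant guidance genes of these cells were lower in Delta-TRRAP, and a few that were near 0 in WT became detectable. ROBO2 fell 122-fold, its ligand SLIT2 fell 2.59-fold and neogenin (NEO1) fell 4.51-fold. The kinase-dead receptor EPHB6, the ephrin EFNA1 and the netrin receptor UNC5C also fell. EPHA2, EPHB2 and ROBO4 rose, from at most 2 counts per WT library to between 8 and 21 counts per Delta-TRRAP library.

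A gene was tested when its mean normalized count over the 6 libraries was at least 5, and it was called when the edgeR quasi-likelihood test gave a Benjamini-Hochberg adjusted p of at most 0.01 over all genes tested and a fold change of at least 2. A normalized count is the count divided by the library's TMM-scaled size relative to the geometric mean of the 6 sizes. Of the 41 members, 38 had a count and 17 of the 19114 tested genes were members. Of these 17, 3 were called higher (17.6%), beside 16.5% of all tested genes, and 6 were called lower (35.3%), beside 6.08% of all tested genes. By the adjusted p alone, 3 were higher and 10 were lower, beside 30.7% and 27.6% of all tested genes, and 4 members did not pass. All Delta-TRRAP libraries lay above all WT libraries for 5 members and below them for 11, beside 37.4% and 33.7% of all tested genes. The median log2 fold change of the 17 members, Delta-TRRAP over WT, was -0.58, beside 0.03 for all tested genes, and the value is the same with ROBO4, which had no WT count, at its lower bound.

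Counts were also made by abundance. Of the 9 members with a mean normalized count of 100 or more, 0 were called higher, beside 7.03% of the tested genes at that level, and 5 were called lower, beside 5.93%. All 9 were lower by the adjusted p of the edgeR test alone, beside 40.0% of the tested genes at that level, and their median log2 fold change was -1.07, beside -0.09 for all tested genes of that abundance. The cut of 100 is on the mean of both groups. ROBO2, EFNA1, EFNA4 and EFNB1 averaged under 100 in Delta-TRRAP and reached the cut through WT. That favours lower values among the 9, so nothing is read from these shares. EPHB4, EPHB6, SLIT2, NEO1 and UNC5B averaged over 100 in each group. The 8 tested members under 100 had 3 called higher, beside 30.8% of tested genes at that level, and 1 called lower, beside 6.31%. Their median was 0.82, beside 0.44. Members that reach the filter through 1 group only had to differ between groups, which applies to ROBO4, EPHB2, EPHA2 and UNC5C, that is, to every called member under 100, so nothing is read from their counts.

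**Figure D1:**
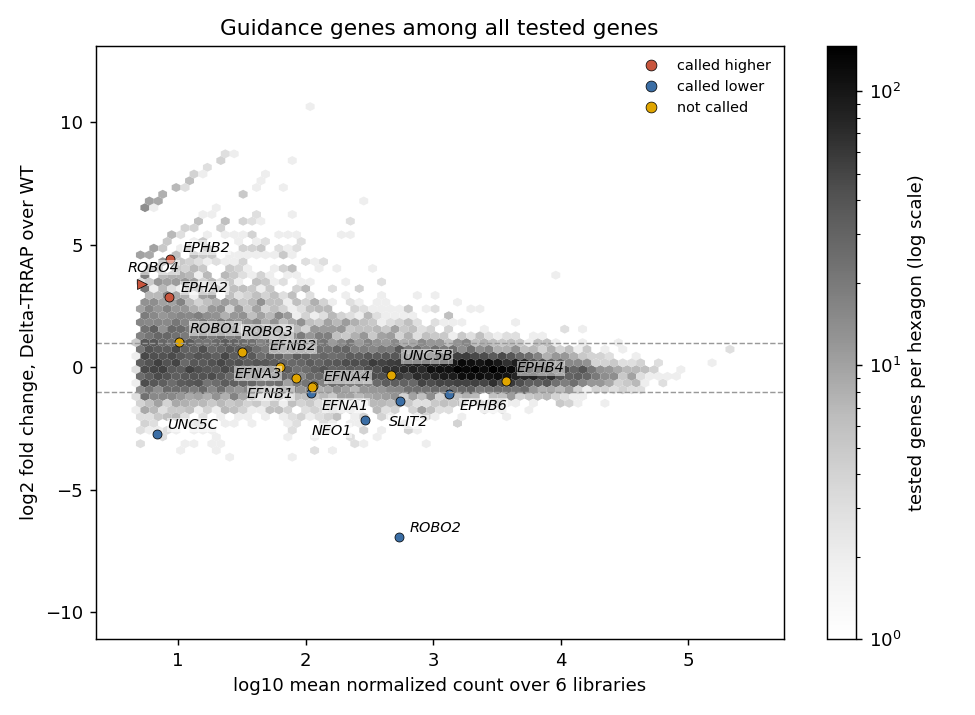
Log2 fold change of Delta-TRRAP over WT (y axis) against the log10 mean normalized count over 6 libraries (x axis) for all 19114 tested genes as hexagons shaded by number, with the 17 tested guidance genes as coloured points and dashed lines at a fold change of 2. The members at high counts lie below 0, ROBO2 lies far under the body of genes at -6.93, and ROBO4 is a triangle at its lower bound.

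Sequence is shown for windows before a RefSeq start of ROBO2 and SLIT2, the receptor and ligand that fell, and of EPHB2 and EPHA2, the Eph receptors that rose. The letters at genes of opposite direction can thus be compared. Each line holds the 250 bases before a RefSeq start on GRCh38.p14, 5′ to 3′ on the gene's strand, with CG dinucleotides in capitals. The windows are chr3:76310630-76310879 (plus strand) for ROBO2, chr4:20251655-20251904 (plus) for SLIT2, chr1:22710588-22710837 (plus) for EPHB2 and chr1:16156070-16156319 (minus) for EPHA2.
ROBO2: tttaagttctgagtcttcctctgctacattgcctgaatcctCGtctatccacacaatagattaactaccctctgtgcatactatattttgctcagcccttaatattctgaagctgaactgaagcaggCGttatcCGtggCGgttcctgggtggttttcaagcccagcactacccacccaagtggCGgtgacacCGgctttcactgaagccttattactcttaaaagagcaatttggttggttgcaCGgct
SLIT2: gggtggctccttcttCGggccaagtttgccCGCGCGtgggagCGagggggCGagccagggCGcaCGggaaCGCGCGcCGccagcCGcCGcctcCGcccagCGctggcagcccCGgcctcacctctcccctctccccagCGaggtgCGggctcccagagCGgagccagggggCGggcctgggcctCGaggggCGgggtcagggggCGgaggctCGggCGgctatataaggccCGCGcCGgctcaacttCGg
EPHB2: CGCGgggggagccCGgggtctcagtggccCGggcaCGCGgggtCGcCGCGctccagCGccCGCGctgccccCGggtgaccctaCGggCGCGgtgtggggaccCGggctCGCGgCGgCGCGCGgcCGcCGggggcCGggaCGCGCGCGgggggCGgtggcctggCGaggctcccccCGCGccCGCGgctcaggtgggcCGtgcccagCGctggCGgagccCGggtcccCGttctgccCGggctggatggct
EPHA2: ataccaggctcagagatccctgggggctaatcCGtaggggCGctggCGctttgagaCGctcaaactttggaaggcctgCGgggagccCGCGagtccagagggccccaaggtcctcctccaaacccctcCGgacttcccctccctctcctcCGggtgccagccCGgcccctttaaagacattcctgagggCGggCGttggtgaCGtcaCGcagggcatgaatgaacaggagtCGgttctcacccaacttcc
The ROBO2 window held 7 CG dinucleotides, the SLIT2 window 30, the EPHB2 window 42 and the EPHA2 window 15, while the quartiles over all 35116 RefSeq promoter windows of this length were 3, 11 and 23. Both Eph receptors that rose had windows above the median of 11, but the window of ROBO4, which also rose, held 10. The genes that fell lay on either side of the median, with 3 for EPHB6, 17 for UNC5C, 24 for EFNA1 and 28 for NEO1. The windows of UNC5C and NEO1 overlap exons. The number of CG dinucleotides thus did not separate genes that rose from genes that fell. The windows of ROBO2 and EPHB6 lie inside the GENCODE 44 spans of these genes and not before their first annotated base. ROBO2 has a further RefSeq start downstream whose window held 27 CG dinucleotides and overlaps exons, and gene counts do not tell which start was used. Both strands were searched for the MYC E-box, spelled CACGTG, which 6.34% of all windows hold. The GATA1 motif, spelled AGATAA, was searched likewise and occurs in 9.17% of all windows. The AP-1 motif, spelled TGANTCA, occurs in 6.57%. None of the 4 windows shown held any of these letters. The window of ROBO4, which rose and is not shown because it overlaps an exon, held the GATA1 letters 201 bases before its start. Neither says anything about binding of the factors. RefSeq windows were matched for 33 of the 41 members.

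Among the Robo receptors, which read Slits at the cell surface, the 4 genes divided. ROBO2 (ENSG00000185008.17, chromosome 3, 75906695 to 77649964, plus strand, GRCh38) had normalized counts of 953, 1145 and 1124 in the WT libraries and 9.81, 11.7 and 4.23 in the Delta-TRRAP libraries. The groups lay about 2 orders of magnitude apart, with no overlap. The mean went from 1074 ± 105 to 8.58 ± 3.88 (SD, n = 3), a log2 fold change of -6.93 ± 0.16 (SE) with an adjusted p of 2.53e-14 by edgeR. ROBO4, a Robo receptor best known from endothelium, had 0 counts in the 3 WT libraries and normalized counts of 12.7, 7.80 and 10.6 in Delta-TRRAP. It was at least 10.4-fold higher, with a floor of 3 counts over the WT group, and the edgeR adjusted p was 4.48e-05. Without any 1 of the 3 Delta-TRRAP libraries its mean fell under the filter and it was not tested.

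The other Robo genes did not pass the test. ROBO1, the widely expressed Slit receptor, had 6.69 ± 2.47 normalized counts in WT and 13.7 ± 3.38 in Delta-TRRAP (SD, n = 3), with a log2 fold change of 1.03 ± 0.39 and an edgeR adjusted p of 0.0276. ROBO3, which in commissural axons tempers the Slit response, had 24.9 ± 6.78 and 38.2 ± 3.54 normalized counts, with a log2 fold change of 0.61 ± 0.23 and an edgeR adjusted p of 0.0283. For both genes all Delta-TRRAP libraries were above all WT libraries. Gene by gene per length of exon (RPKM), ROBO2 held 1.66 of a summed Robo level of 1.76 in WT. In Delta-TRRAP the summed level was 0.226 RPKM, and the order was ROBO3 (0.141), ROBO4 (0.0403), ROBO1 (0.0318) and ROBO2 (0.0132). ROBO4 and ROBO1 did not differ beyond their spread there. The fall of ROBO2 thus took the Robo class from mainly 1 receptor at WT levels to low levels of 4.

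SLIT2, the Slit ligand expressed in these cells, had normalized counts of 723, 815 and 823 in WT and 289, 355 and 268 in Delta-TRRAP. Every Delta-TRRAP library was less than 0.5 times the lowest WT library. The mean went from 787 ± 55.4 to 304 ± 45.4 (SD, n = 3), and the log2 fold change was -1.37 ± 0.09 with an edgeR adjusted p of 3.91e-09. SLIT3 lay under the filter, with counts of 14, 7 and 4 in Delta-TRRAP and 0 in every WT library, which makes it at least 8.26-fold higher. SLIT1 had 4 counts in 1 library of each group and 0 in the others. So the ligand and the main receptor of the Slit-Robo pair were both lower in Delta-TRRAP.

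**Figure D2:**
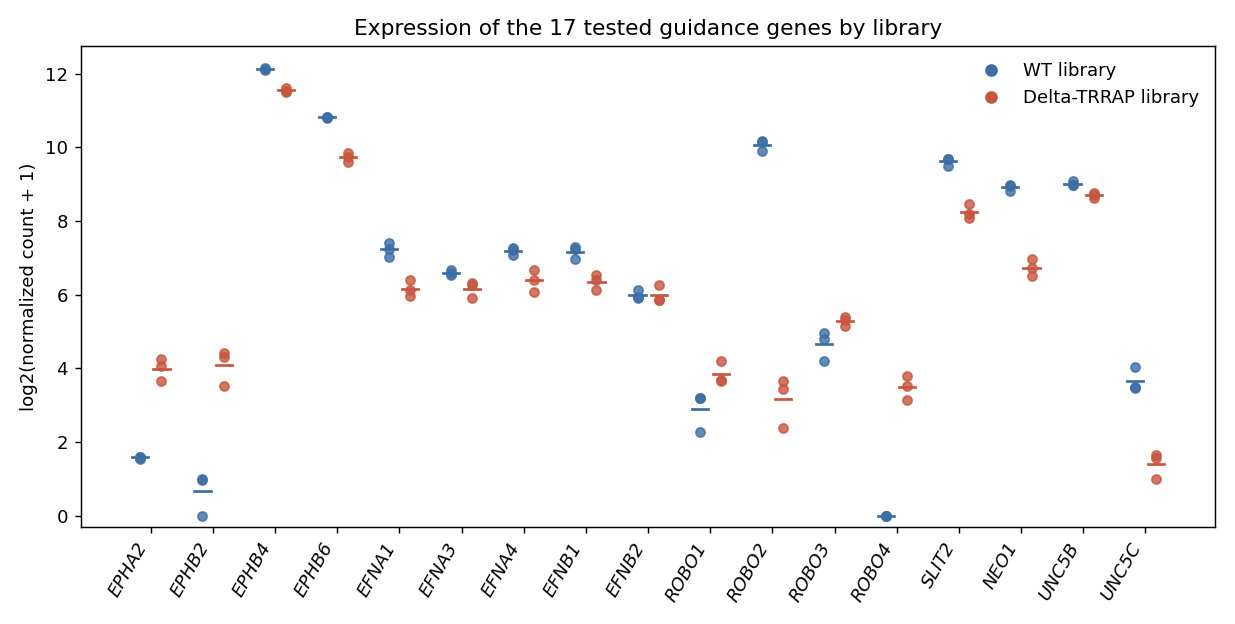
Log2(normalized count + 1) (y axis) of the 17 tested guidance genes (x axis) in each of 3 WT and 3 Delta-TRRAP libraries, with a short line at the mean of each group. ROBO2 shows the widest gap between groups, ROBO4 sits at 0 in WT, and the EFNB2 libraries of both groups overlap.

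Of the netrin receptors, 3 of 6 were tested and all 3 were lower by the adjusted p, beside 27.6% of all tested genes. Among these 3, UNC5C reached the filter through WT only and so had to differ, and nothing is read from the count. NEO1, which codes for neogenin, a DCC relative that binds netrins and repulsive guidance molecules, had normalized counts of 451, 493 and 500 in WT and 104, 125 and 89.9 in Delta-TRRAP. The lowest WT library lay more than 3 times above the highest Delta-TRRAP library. The log2 fold change was -2.17 ± 0.11 with an edgeR adjusted p of 9.41e-11. UNC5C, a repulsive netrin receptor, had 10.1, 15.3 and 10.2 normalized counts in WT and 0.981, 1.95 and 2.12 in Delta-TRRAP. The groups did not overlap, though both were low, and the log2 fold change was -2.75 ± 0.51 with an edgeR adjusted p of 0.000193. UNC5B, the UNC5 member known from vessels, had 517 ± 25.5 and 415 ± 20.2 normalized counts (SD, n = 3), a log2 fold change of -0.32 ± 0.07 with an edgeR adjusted p of 0.00109, and was not called because the change was under 2-fold. DCC, the attractive netrin receptor, had 1 count over the WT group and 3 over the Delta-TRRAP group, UNC5A had 5 and 0, and UNC5D had 0 and 1.

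No netrin passed the filter, so the receptors above were measured in cells with few or no reads of their classical ligands. NTN4 and NTNG1 had 0 counts in all 6 libraries. Over the WT and Delta-TRRAP groups, NTN1 summed to 0 and 2 counts, NTN3 to 0 and 1, and the membrane-anchored NTNG2 to 5 and 9. NTN5 was at 0 in every WT library and at 4, 3 and 3 counts in the Delta-TRRAP libraries, which makes it at least 3.34-fold higher. Absence of these RNAs cannot be read from so few counts, only that they lay near or under the level detectable at this depth.

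The EphB receptors were the most expressed class by length. EPHB4, the ephrin-B2 receptor of veins and haematopoietic progenitors, had normalized counts of 4452, 4531 and 4425 in WT and 2917, 3116 and 2929 in Delta-TRRAP. The groups were tight and far apart, yet the change was smaller than 2-fold, with a log2 fold change of -0.58 ± 0.05 and an edgeR adjusted p of 5.50e-08. EPHB6, an Eph receptor without kinase activity, had normalized counts of 1818, 1768 and 1811 in WT and 928, 851 and 773 in Delta-TRRAP. Each Delta-TRRAP library was near 0.5 times the WT level or below, the log2 fold change was -1.08 ± 0.06, and the edgeR adjusted p was 8.22e-10. With scaling by library size alone its log2 fold change was -0.95 and it was no longer past the 2-fold limit. That scaling moved the median of all tested genes from 0.03 to 0.17, so values near a 2-fold change are best read against that median.

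EPHB2, the EphB receptor of synapses and intestinal crypts, went the other way. It had normalized counts of 1.01, 0.959 and 0 in WT and 18.6, 20.5 and 10.6 in Delta-TRRAP. The groups did not overlap, and the sums were 2 and 50 counts, a 25.2-fold ratio (95% exact Poisson counting limits 6.62 and 214). The edgeR adjusted p was 1.40e-05. EPHB1 summed to 3 WT and 6 Delta-TRRAP counts, and EPHB3 was at 0 in every WT library and at 1, 1 and 2 in the Delta-TRRAP libraries. Intervals and floors cover counting error only.

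EphA receptors were near the limit of detection in WT. EPHA2, an epithelial Eph receptor and the sole EphA gene to pass the filter, had normalized counts of 2.03, 1.92 and 2.03 in WT and 15.7, 11.7 and 18.0 in Delta-TRRAP. The lowest Delta-TRRAP library was more than 5 times the highest WT library. The log2 fold change was 2.84 ± 0.45 with an edgeR adjusted p of 4.73e-05. EPHA1 had 8 counts over the WT group and 21 over the Delta-TRRAP group, and its libraries overlapped. EPHA10 had 2 and 7 counts, EPHA6 had 0 and 7, EPHA4 had 0 and 2, EPHA3 had 0 and 1, EPHA5 and EPHA8 had 1 in each group, and EPHA7 had 0 in all 6 libraries. EPHA1-AS1, a non-coding gene antisense to EPHA1 that was counted by strand, rose from 26.9 ± 2.24 to 75.2 ± 1.91 normalized counts (SD, n = 3), with a log2 fold change of 1.48 ± 0.17 and an edgeR adjusted p of 1.68e-06. UNC5B-AS1 summed to 3 WT counts and 0 Delta-TRRAP counts, and the other antisense or intronic genes of members, SLIT1-AS1, SLIT2-IT1 and EPHA5-AS1, had 0 in all 6 libraries.

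The ephrins were expressed at intermediate levels, and 5 of 8 were tested. EFNA1, an A ephrin that binds EphA2, had normalized counts of 169, 150 and 130 in WT and 61.8, 82.9 and 68.8 in Delta-TRRAP. The groups did not overlap, and the log2 fold change was -1.07 ± 0.15 with an edgeR adjusted p of 9.38e-06. It lay close to the 2-fold limit: the log2 fold change was -0.98 without WT replicate 1, -0.98 without Delta-TRRAP replicate 1 and -0.94 with scaling by library size. EFNA4 went from 145 ± 9.52 to 84.0 ± 17.4 normalized counts (log2 fold change -0.79 ± 0.14, edgeR adjusted p 0.000173). EFNA3 went from 96.2 ± 4.92 to 71.1 ± 10.2 normalized counts (log2 fold change -0.44 ± 0.14, edgeR adjusted p 0.0135) and did not pass. These 3 A ephrin genes lie side by side among tested genes on chromosome 1 in the order EFNA4 (155063737 to 155069553), EFNA3 (155078837 to 155087538) and EFNA1 (155127876 to 155134899), and the Delta-TRRAP libraries were below the WT libraries for each.

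Of the B ephrins, which are transmembrane ligands, EFNB1 went from 143 ± 17.3 to 81.2 ± 11.6 normalized counts (SD, n = 3), with a log2 fold change of -0.81 ± 0.14 and an edgeR adjusted p of 0.000108. EFNB2, the ligand of EPHB4, had normalized counts of 59.8, 59.5 and 69.2 in WT and 56.9, 76.0 and 57.1 in Delta-TRRAP. Its groups overlapped, and the log2 fold change was 0.02 ± 0.17 with an edgeR adjusted p of 0.936. EFNA2 had 8 counts in each group, EFNA5 had 2 in WT and 6 in Delta-TRRAP, and EFNB3 had 3 in each group. Of the Eph receptors and ephrins with a mean normalized count of 100 or more, EPHB6 and EFNA1 were called lower, and EPHB4, EFNA4 and EFNB1 passed the adjusted p with changes under 2-fold.

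**Figure D3:**
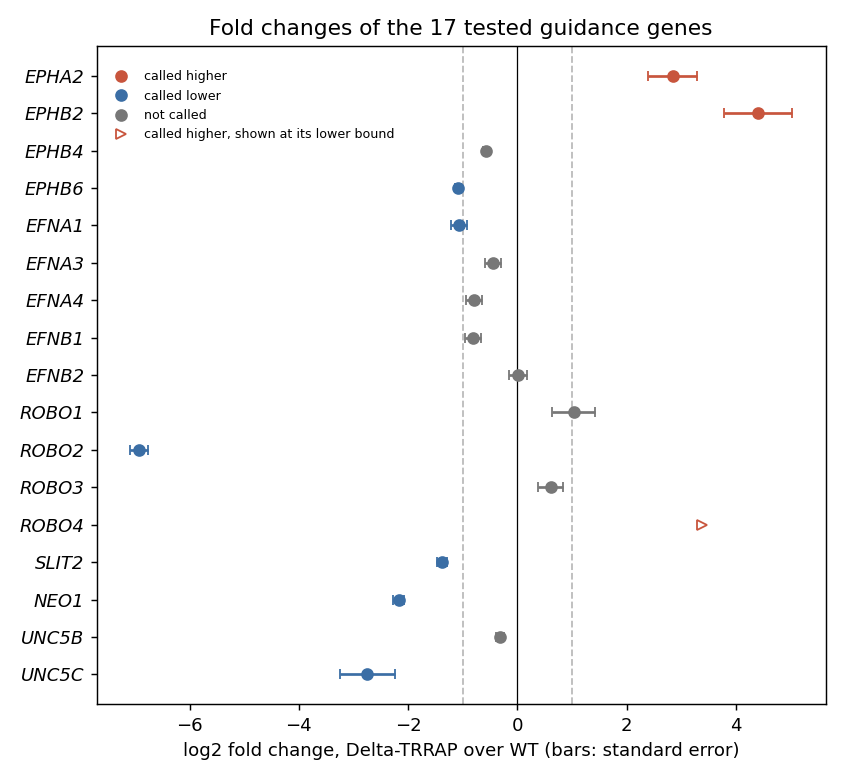
Log2 fold change of Delta-TRRAP over WT (x axis) with its standard error (bars) for the 17 tested guidance genes, coloured by call, with dashed lines at a fold change of 2. ROBO4 is an open triangle at its lower bound because WT had 0 counts, and 6 members lie past the lower line.

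Levels between genes were compared as RPKM, normalized counts scaled by exon length and library size. In WT the order was EPHB4 (17.8 ± 0.22), EPHB6 (8.68 ± 0.13), EFNA4 (2.96 ± 0.19), UNC5B (1.94 ± 0.096), SLIT2 (1.83 ± 0.13), EFNA1 (1.78 ± 0.23), ROBO2 (1.66 ± 0.16), NEO1 (1.52 ± 0.083), EFNA3 (1.27 ± 0.065), EFNB1 (1.11 ± 0.13) and EFNB2 (0.323 ± 0.028; SD, n = 3). From UNC5B to NEO1, neighbours in this order did not differ beyond the spread of their libraries. Every other member was under 0.1 RPKM in WT. Lengths of the longest transcript in place of all exons moved ROBO2 to 2.89 RPKM and SLIT2 to 2.51, so the order among the middle genes depends on the gene model.

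Summed over all 41 members, the level was 41.2 ± 0.24 RPKM in WT and 23.6 ± 0.73 in Delta-TRRAP (SD, n = 3). EphB receptors went from 26.5 to 16.1 RPKM, ephrin-A ligands from 6.04 to 3.54, netrin receptors from 3.50 to 1.90, Slits from 1.83 to 0.725, Robo receptors from 1.76 to 0.226 and ephrin-B ligands from 1.44 to 0.965. EphA receptors went the other way, from 0.0318 ± 0.020 to 0.148 ± 0.011 RPKM, with EPHA2 the only tested gene among them. The netrin sum was 0.00852 ± 0.0108 in WT, all of it from NTNG2, and 0.0498 ± 0.0096 in Delta-TRRAP. No netrin passed the filter, so no direction is read for that class. Within the sum, EPHB4 held 43.4% in WT and 50.5% in Delta-TRRAP, EPHB6 held 21.1% and 17.4%, and ROBO2 held 4.03% and 0.0556%. EPHB4 was thus the leading guidance gene of both groups, and the rises at EPHA2, EPHB2 and ROBO4 added little RNA beside the falls.

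**Figure D4:**
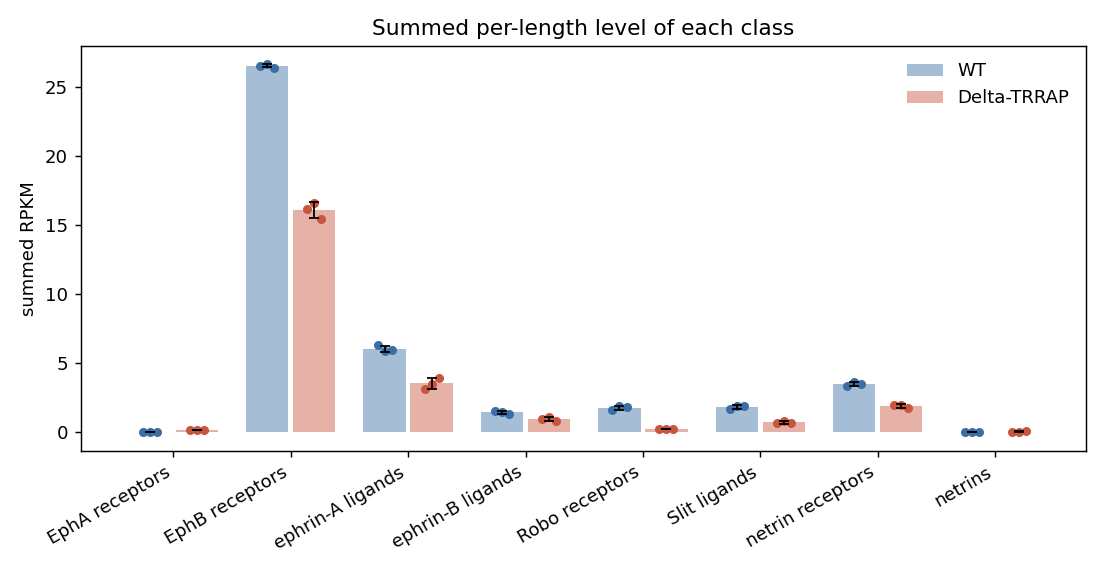
Summed RPKM (y axis) of all members in each of the 8 classes (x axis), with bars at the group mean, error bars of 1 SD and points for the 3 libraries of each group. The EphB class is highest in both groups, and 6 of the 8 classes are lower in Delta-TRRAP.

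The 24 members under the filter included 3 with no count in any library, 17 with 1 to 10 counts over the 6 libraries and 4 with more. When every gene with a count was tested, SLIT3 and NTN5 were also called higher, with edgeR adjusted p of 7.58e-07 and 0.00571, and no other member under the filter was called.

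Within 1000 kb of ROBO2, 8 other genes were tested and 0 were called, with a median log2 fold change of 0.19. The next tested gene after ROBO2 was ROBO1, 947.3 kb away. Around SLIT2, 2 genes were tested and 0 were called, with a median of -0.27. They differed: PACRGL, 75.7 kb away, was lower by less than 2-fold (log2 fold change -0.91 ± 0.05, edgeR adjusted p 8.39e-10). AC114728.1, at low counts, did not pass (0.38 ± 0.47, edgeR adjusted p 0.4985). Around NEO1, 21 genes were tested, of which 5 were called higher and 3 lower, with a median of 0.22. Of all tested genes, 16.5% were called higher and 6.08% lower. The windows of ROBO2 and SLIT2 hold too few genes for anything to be read from 0 calls. ROBO3 and ROBO4 lie 2.2 kb apart on opposite strands of chromosome 11 and were both higher in every Delta-TRRAP library, though the test was passed by ROBO4 only.

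Signalling partners of these receptors were taken from 3 lists of 73 genes in all, of which 57 were tested. Of these, 8 were called higher (14.0%) and 4 lower (7.02%), close to the 16.5% and 6.08% of all tested genes, and the median log2 fold change was -0.08. By the edgeR adjusted p alone 19 were higher, 20 were lower and 18 did not pass. Of the partners called higher, GRIP1, SRGAP3, NCAM1 and MYO10 averaged under 5 normalized counts in WT. They reached the filter through Delta-TRRAP only and so had to differ between groups, and nothing is read from their number.

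Of 26 tested partners of Eph receptors and ephrins, 2 were called higher and 2 lower. GRIP1, a PDZ adaptor that binds ephrin-B tails, had normalized counts of 1.01, 0.959 and 1.02 in WT and 237, 270 and 231 in Delta-TRRAP, and the sums of 3 and 737 counts give a 247-fold ratio (95% exact Poisson counting limits 84.3 and 1202). CHN1, a Rac GTPase-activating protein downstream of EphA4, went from 88.3 ± 1.85 to 291 ± 9.44 normalized counts (log2 fold change 1.72 ± 0.10, edgeR adjusted p 6.32e-10). Of the Src-family kinases on the list, which pass on Eph and ephrin signals, those called were SRC with a log2 fold change of -1.22 ± 0.08 (edgeR adjusted p 1.81e-09) and FYN with -1.05 ± 0.05 (5.52e-11). YES1, the most abundant of them, had a log2 fold change of -0.19 ± 0.05 (0.00583) and was not called.

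Of 18 tested partners of Slits and Robos, 3 were called higher and 1 lower. NELL2, a ligand of Robo3, went from 56.1 ± 1.69 to 165 ± 15.3 normalized counts (log2 fold change 1.55 ± 0.13, edgeR adjusted p 4.81e-08), and PAK1, a kinase activated by Rac and CDC42, from 267 ± 5.16 to 606 ± 17.2 (1.18 ± 0.07, 8.48e-10). VASP, which promotes actin filament growth, went from 9891 ± 52.2 to 4083 ± 168 normalized counts (-1.28 ± 0.05, 8.88e-12). Of 13 tested partners of netrin receptors, 3 were called higher and 1 lower. HJV, hemojuvelin, a repulsive guidance molecule relative that binds neogenin, went from 222 ± 12.2 to 829 ± 73.1 normalized counts (1.90 ± 0.08, 2.45e-11), so this neogenin ligand rose while NEO1 fell. TRIM67, a ubiquitin ligase that binds DCC, went from 33.6 ± 5.16 to 15.0 ± 6.61 (-1.15 ± 0.29, 0.00247). The other called partners, SRGAP3, NCAM1 and MYO10, were all higher, had mean normalized counts under 20 and are named after their values were seen.

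The WT libraries held 39966818 to 42616061 counts, and the Delta-TRRAP libraries 35076835 to 38491513. EP400, counted over endogenous and transgene RNA together, had a log2 fold change of 0.14 ± 0.11 (edgeR adjusted p 0.272), and the gene count does not show the deleted region. The labels call the cells lymphoblast. All 10 erythroid and megakaryocytic markers were tested, with summed normalized counts of 229300 to 231300 per WT library and 142300 to 147600 per Delta-TRRAP library, while the B-cell marker MS4A1 was at 0 and 10 lymphoid markers summed to 509 to 522 and 455 to 487. The 10 fibroblast and mesenchymal markers summed to 36.5 to 57.0 per WT library and 934 to 992 per Delta-TRRAP library. Of the 5 tested, 3 were called higher, beside 16.5% of all tested genes. Those called, COL1A2, PDGFRB and POSTN, averaged under 5 normalized counts in WT. They reached the filter through Delta-TRRAP only and so had to differ, and nothing is read from their number. COL1A1 (log2 fold change 0.06 ± 0.29, edgeR adjusted p 0.862) and DCN (-0.41 ± 0.47, 0.454) did not pass. COL1A2 made up most of the Delta-TRRAP sum (876 ± 45.1), LUM and PDGFRA were at 0 in all 6 libraries and THY1 had 1 count. The 10 endothelial markers summed to 701 to 717 and 441 to 524, and PECAM1 made most of the sum (674 ± 8.58 and 401 ± 35.5). TEK was called higher (2.30 ± 1.43 and 34.0 ± 4.72), but it reached the filter through Delta-TRRAP only and so had to differ. KDR (0 and 17 counts over the groups), ERG (2 and 18) and VWF (1 and 10) lay under the filter, with every Delta-TRRAP library above every WT library, and CDH5 had 1 count in all. TIE1 (log2 fold change 0.285 ± 0.37, edgeR adjusted p 0.5075) and ESAM (0.10 ± 0.24, 0.737) did not pass. EMCN had 0 and 2 counts over the groups and CLDN5 had 0 and 1. The 10 neuronal and glial markers summed to 210 to 236 and 488 to 576, with SYT1 and GAP43 called higher and RBFOX3, STMN2, NEFL and OLIG2 at 0. Most of the sum was SLC17A7 (116 ± 4.84 and 184 ± 23.0), which rose by less than 2-fold, and SYT1 (76.4 ± 1.45 and 287 ± 33.9). SYN1 (log2 fold change 0.55 ± 0.39, edgeR adjusted p 0.229) and GFAP (0.16 ± 0.42, 0.744) did not pass, and SNAP25 had 3 and 6 counts over the groups. The part of these markers in the rises at EPHA2, EPHB2 and ROBO4 was not tested. In bulk RNA, fewer cells with a gene and less RNA per cell cannot be told apart.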

How the data were processed

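Poly(A) RNA of 6 libraries was examined, 3 WT and 3 Delta-TRRAP, grouped by sample title. The authors deposited raw counts per gene. Per the study's methods, STAR placed reads on hg38, and HTSeq 2.0.2 counted the uniquely mapped ones by strand on GENCODE 32. Multi-mapping reads were dropped, so genes with near-identical copies are counted low. A deposited table of normalized values, with 3 columns of other samples, and a table of the authors' own fold changes and p-values were not used.

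The test was edgeR 4.0.16 (R 4.3.3), with TMM scaling, the quasi-likelihood F test and a group term alone, on every gene whose normalized counts averaged 5 or more, with Benjamini-Hochberg adjustment. Calls needed an adjusted p of at most 0.01 and a fold change of at least 2. The SE of a log2 fold change was derived from the F test, as its absolute value divided by the square root of F. An exact permutation test of 3 against 3 libraries cannot go below 0.1, so none is given. Positions and exon lengths came from GENCODE 44. The script was tested on simulated data. Alternatives were DESeq2 1.42.0, further scalings, filters and thresholds, a replicate block, and fits that each dropped 1 library. Within groups, pairs of libraries had a chi-square per degree of freedom between 4.93 and 15.5, where counting noise gives about 1, and were kept as separate replicates.

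The members and lists were chosen with earlier results of these data known. Every member is accounted for, tested members with their values and the others with their counts. Of the partners, up to 3 called genes with the largest rise and up to 3 with the largest fall per list were named, provided their normalized counts averaged 20 or more. Partner and marker lists were written from general knowledge.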

Additional observations from a re-analysis of the deposited data

How the results depend on the processing

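The 3 members called higher and 6 called lower were 3 and 6 with DESeq2, with RLE scaling and with the replicate number as a block, under which 4184 genes were called in all. The numbers share no pairing (correlations of deviations -0.0095, -0.0293 and -0.019). Without a filter 5 members were called higher, and with a minimum mean normalized count of 50 there were 0, because the 3 members called higher are not tested there. That minimum gave 2 partners called lower and 1964 genes called in all. A fold change of 1.5 gave 13 partners higher, 8 partners lower and 6750 genes in all, against 8, 4 and 4322, by construction. Scaling by library size gave 4 members called lower and put 79.6% of all calls on the higher side, against 73.1%. Leaving out each library gave 2 to 3 members higher and 5 to 6 lower. EFNB2, whose groups overlap, changed sign, with log2 fold changes of -0.0038 (DESeq2), -0.0086 (no filter) and, when each library was left out, from -0.13 to 0.0853, with -0.0329 and -0.0251 also below 0. EFNA1 was at -0.9993 with the minimum of 50. Of 195 alternative fits of a member that was still tested, at the 2-fold limit, 185 kept direction and call, 5 lost the call and 5 changed sign. At the minimum of 50, 6 members were not tested, 4 of them called otherwise, and ROBO4 was not tested without any 1 Delta-TRRAP library. Members under the filter are limited by depth.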
